A study of Mus musculus with 2 samples.

Results

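The genes described here encode the proteins of the cytoplasmic ribosome, together with their paralogues. The members were all genes of the count tables whose symbol was Rpl or Rps followed by a number, without the Rps6k kinases, which gave 90 of 24411 genes. By symbol and annotation they comprised 43 core proteins of the large subunit (Rpl), 30 core proteins of the small subunit (Rps), 9 paralogues, 7 pseudogenes or retrocopies, and Rps19bp1, which binds Rps19 and is not a ribosomal protein. The rule itself used only the symbols and no measured value, but it was chosen with earlier results of these data known.

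The libraries came from a study of a light-directed barcoding method, in which laser capture microdissection (LCM) and bulk RNA-seq of the same brain regions served as the benchmark. Both groups were fresh-frozen mouse brain at embryonic day 16.5, cut from cryosections stained with haematoxylin and eosin. One group was the subventricular zone (SVZ), a germinal layer in which neural progenitors divide, and the other was the cortex, where young neurons settle. The labels name no strain, number of embryos or treatment for either group, and each group was 1 library.

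The ribosome is built from ribosomal RNA and a set of proteins that are used in nearly fixed proportions, so their genes are usually expressed together. Dividing progenitors make many ribosomes. Several ribosomal proteins have a paralogue that can take their place or acts in ribosome assembly, and mammalian genomes hold many processed pseudogenes copied from ribosomal protein mRNAs.

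Many ribosomal protein mRNAs start with a 5′ terminal oligopyrimidine (TOP) motif, through which the mTOR kinase and Larp1 control their translation. To show where the main paralogue pairs carry it, 30 bases around the annotated transcription start are given in the sense direction (RefSeq, GRCm38.p6), with the start as base 16. Capitals mark a C followed by at least 4 bases that are each C or T, on the sense strand and beginning within 5 bases of the start.

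Rpl22 (chr4:152325711-152325740, + strand): ttcgccctgggaaaagcaatagctggccga
Rpl22l1 (chr3:28805493-28805522, + strand): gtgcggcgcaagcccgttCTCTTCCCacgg
Rps27 (chr3:90213634-90213663, - strand): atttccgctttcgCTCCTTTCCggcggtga
Rps27l (chr9:66946071-66946100, + strand): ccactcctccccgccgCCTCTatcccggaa
Rpl36a (chrX:134585639-134585668, + strand): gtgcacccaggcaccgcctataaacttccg
Rpl36al (chr12:69184053-69184082, - strand): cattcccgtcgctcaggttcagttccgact
Rpl7l1 (chr17:46782642-46782671, - strand): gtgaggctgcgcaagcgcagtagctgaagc

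The windows of Rpl22l1, Rps27 and Rps27l held the motif, and those of Rpl22, Rpl36a, Rpl36al and Rpl7l1 did not. Of the 73 core subunits, 54 had an annotated start in the RefSeq table. Of these, 26 (48.1%) held the motif within 5 bases of any of their annotated starts. Among all 17224 genes with a start the share was 21.7%. Within 20 bases the shares were 81.5% of core subunits and 53.8% of all genes, and this wider window was chosen after the data were seen. In that wider window Rpl22, Rpl36a and Rpl36al also held the motif at an annotated start, and Rpl7l1 did not. A match is a description of the letters at one annotated start, and no match says only that these letters were not in the window.

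Gene-assigned reads numbered 51435667 in the SVZ library and 22050693 in that of the cortex, so the SVZ was sequenced 2.33 times as deeply. Values are reads per 1000000 gene-assigned reads (CPM), and ratios are log2 of SVZ CPM over cortex CPM with no pseudocount. Each interval is an exact 95% (Clopper-Pearson) interval from the counts, and it covers counting error only, since PCR copies without molecular identifiers are not independent molecules. Since each area had 1 library, differences have no replicate check, and no p-value is given. In bulk tissue, more cells expressing a gene and more of its RNA in each cell cannot be told apart. The labels were checked against marker genes of each area. All 7 progenitor markers were higher in the SVZ library, with a summed level of 1310 CPM against 58.2 CPM, and of the 7 cortical neuron markers all 6 with an average of 10 CPM or more were higher in the cortex library, with a summed level over the 7 of 2830 CPM in the SVZ against 6200 CPM.

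Ribosomal protein genes took a larger share of the SVZ library than of the cortex library. The 90 members together had 1007404 reads in the SVZ, 1.959% of the gene-assigned reads, and 286693 reads in the cortex, 1.300%. The summed ratio was 0.59 on the log2 scale (0.585 to 0.597), or 1.51-fold. Both subunits were higher by a like amount. The large subunit proteins had a summed share of 1.103% in the SVZ and 0.7485% in the cortex, a log2 ratio of 0.56, and the small subunit proteins 0.7867% and 0.5155%, a log2 ratio of 0.61. Summed together, the paralogues had a larger ratio than the core proteins, with 29595 reads in the SVZ and 5456 in the cortex, a log2 ratio of 1.22. Rps27l contributed most to that value, and without it the other paralogues had a summed ratio of 0.92. Single paralogues differed, and Rpl36al at 0.53 lay within the quartiles of the compared core subunits, 0.48 and 0.70.

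Gene by gene, the difference was shared by nearly all members. An average of 10 CPM or more across the libraries was reached by 74 members and by 9027 genes in all, and these are the genes compared below. Of the 74 members, 70 were higher in the SVZ library, where 55.2% of all compared genes were. The median log2 ratio of the members was 0.59 and that of all compared genes 0.10. The quartiles of the members were 0.48 and 0.70, a narrower band than the -0.46 and 0.61 of all compared genes. Short transcripts in general had higher ratios in these libraries, and relative to genes of like transcript length the members' median was 0.20, as described further on. The counting interval lay wholly on the SVZ side for 70 members, against 49.8% of all genes, and wholly on the cortex side for 2, against 39.5% of all genes. Few members differed by as much as 2-fold. In the SVZ 2 were at least that much higher, where 14.9% of all genes were, and 0 were at least 2-fold higher in the cortex, where 12.3% of all genes were.

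**Figure D1:**
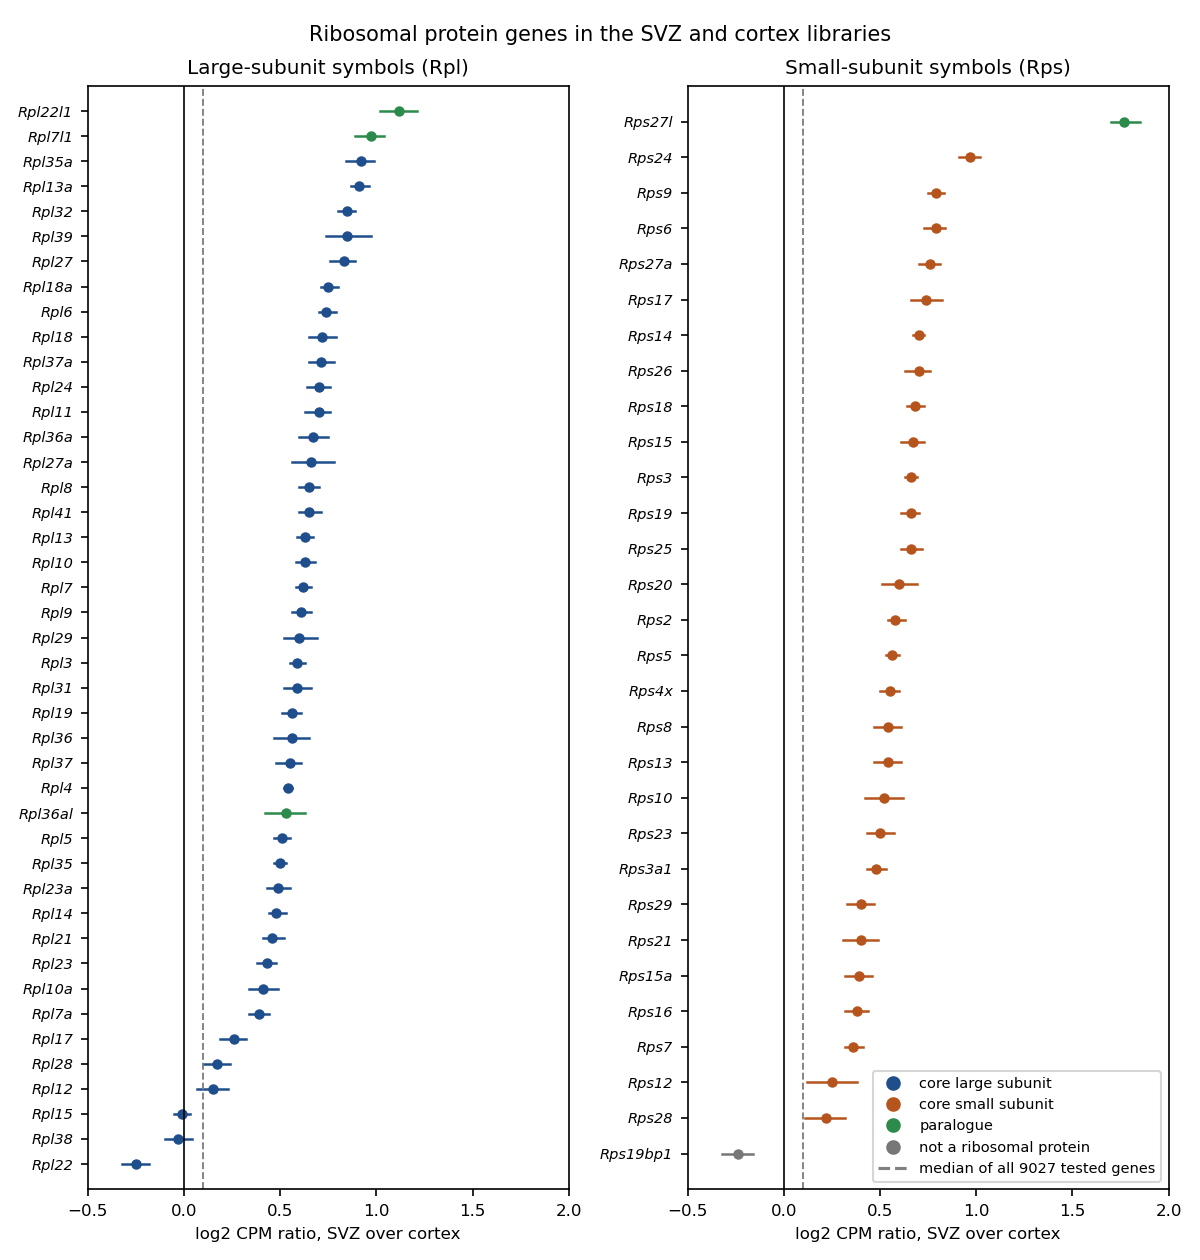
SVZ over cortex CPM on the log2 scale (x axis) for members averaging 10 CPM or more, 1 of the 74 not being shown, large-subunit symbols on the left and small-subunit symbols on the right, with exact 95% counting intervals as bars and 1 library per area. The quartiles of the 74 are 0.48 and 0.70, the paralogues Rps27l and Rpl22l1 lie highest and Rpl22 lies lowest.

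Among the core subunits alone, 69 of 73 were compared and 66 of these were higher in the SVZ, with a median log2 ratio of 0.59 and an SD over genes of 0.22. For 56 of the 69 the ratio lay within 0.25 of that median. The spread between them was nonetheless wider than counting error, because the intervals of only 17 genes held the median. Each of the 29 compared small subunit proteins was higher in the SVZ, with ratios from 0.22 to 0.97, but 6 of them (Rps28, Rps12, Rps7, Rps29, Rps21 and Rps16) turned to between -0.22 and -0.01 relative to genes of like transcript length. The 40 compared large subunit proteins ranged from -0.25 to 0.92, and 37 were higher in the SVZ.

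**Figure D2:**
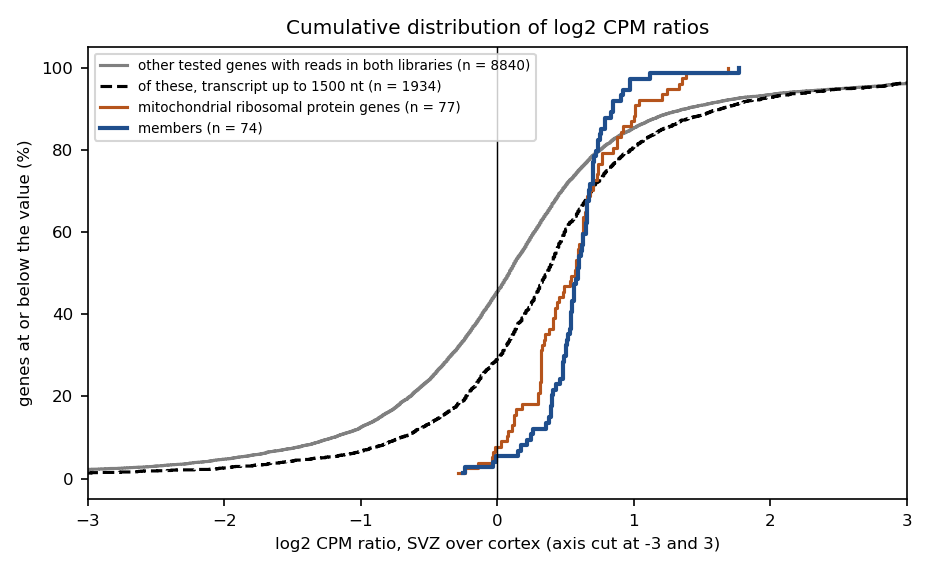
Cumulative share of genes (y axis, percent) at or below each log2 CPM ratio of SVZ over cortex (x axis), for the 74 compared members, the 77 mitochondrial ribosomal protein genes, other compared genes and those of them with transcripts up to 1500 nt. The members' curve is the steepest and has its median at 0.59, while the curve of the other short transcripts rises over a wide range of ratios.

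Rps27l was the member with the largest difference. It encodes a close relative of the small subunit protein Rps27 and is known as a target of p53. It had 12392 reads in the SVZ, 241 CPM, and 1555 reads in the cortex, 70.5 CPM. The SVZ value was 3.42-fold that of the cortex, a log2 ratio of 1.77 (1.70 to 1.85), and 92.4% of all compared genes had a lower ratio. The gene lies on chromosome 9 from 66946086 to 66949516 (GRCm38).

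Rpl22l1 was the other member past 2-fold. It encodes a paralogue of Rpl22, an RNA-binding protein of the large subunit that is known to hold down expression of Rpl22l1. Rpl22l1 had 5542 reads in the SVZ, 108 CPM, and 1095 reads in the cortex, 49.7 CPM, a log2 ratio of 1.12 (1.02 to 1.21). Rpl22 itself went the other way and had the lowest ratio of all compared members. Its 5029 reads in the SVZ gave 97.8 CPM and its 2560 reads in the cortex 116 CPM, a log2 ratio of -0.25 (-0.32 to -0.18). The genes lie on chromosome 3 (Rpl22l1, 28805436 to 28807424) and chromosome 4 (Rpl22, 152325742 to 152334071).

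The balance within this pair therefore differed between the libraries. Rpl22l1 gave 52.4% (51.5 to 53.4) of the pair's reads in the SVZ and 30.0% (28.5 to 31.5) in the cortex. The log2 odds ratio was 1.37 (1.25 to 1.48), a 2.58-fold difference in odds. Per kb of transcript, Rpl22l1 was at 4.30 times the level of Rpl22 in the SVZ and at 1.67 times in the cortex. Cross-mapping can lower both counts, since STAR does not count a read that maps to several places. Of the windows of 75 bases along each transcript, 98.6% of those of Rpl22 and 55.7% of those of Rpl22l1 occurred in no other annotated gene. The transcripts also differ in length, 525 nt for Rpl22l1 and 2048 nt for Rpl22. All compared genes in their classes of length had median ratios of 0.44 and 0.16. Relative to those medians Rpl22l1 was at 0.68, under 2-fold, and Rpl22 at -0.41. The part of cross-mapping or transcript length in the balance of this pair was not tested.

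**Figure D3:**
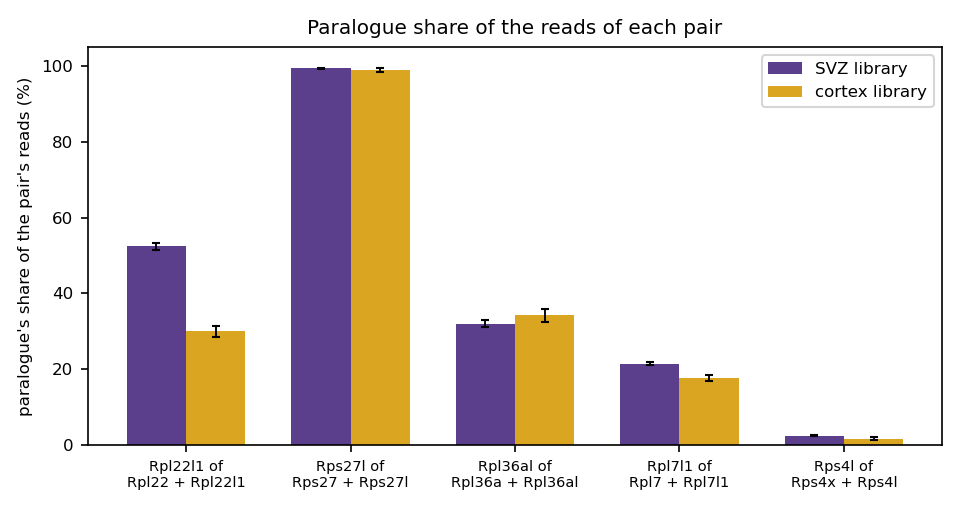
Share of each pair's reads that came from the paralogue (y axis, percent) in the SVZ library and the cortex library, with exact 95% binomial intervals and 1 library per area. Rpl22l1 held 52.4% of its pair in the SVZ and 30.0% in the cortex, and the other 4 pairs differed by smaller steps.

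In the other pairs the shares were closer to equal between the areas. Rpl7l1, a relative of Rpl7 linked to the assembly of the large subunit, had 8024 reads (156 CPM) in the SVZ and 1757 reads (79.7 CPM) in the cortex, a log2 ratio of 0.97 (0.89 to 1.04). Its partner Rpl7 had 29485 and 8223 reads, a log2 ratio of 0.62 (0.58 to 0.66). Rpl7l1 gave 21.4% of the pair's reads in the SVZ and 17.6% in the cortex, a log2 odds ratio of 0.35 (0.27 to 0.43), so the balance leaned to the paralogue in the SVZ, by less than for Rpl22l1.

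Rpl36al is an autosomal copy of the X-linked gene Rpl36a. Rpl36al had 3216 reads in the SVZ and 958 in the cortex, a log2 ratio of 0.53 (0.42 to 0.63), and Rpl36a had 6845 and 1841, a log2 ratio of 0.67 (0.60 to 0.75). The copy gave 32.0% of the pair's reads in the SVZ and 34.2% in the cortex, a log2 odds ratio of -0.15 (-0.28 to -0.02). This was the one pair of the 5 with a ratio in which the paralogue's share was lower in the SVZ. Of the windows of Rpl36a 15.4% were unique, against 74.8% for Rpl36al, so the levels within the pair are uncertain.

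Rps27 and Rps27l could not be compared as a pair at face value. Rps27 had 77 reads in the SVZ and 15 in the cortex, and only 1.48% of its windows were found in no other gene, against 88.0% for Rps27l. Rps27l thus gave 99.4% and 99.0% of the pair's reads, and the log2 odds ratio of 0.63 had an interval that held 0 (-0.27 to 1.45). For Rps27 alone the log2 ratio was 1.14 (0.33 to 2.04), on too few reads to pass the 10 CPM minimum.

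Rps4l, which the GENCODE annotation lists as a transcribed processed pseudogene related to the X-linked Rps4x, had 413 reads in the SVZ and 82 in the cortex. Its log2 ratio was 1.11 (0.77 to 1.47), below the 10 CPM minimum. It gave 2.48% (2.25 to 2.73) of the pair's reads in the SVZ and 1.69% (1.35 to 2.10) in the cortex, a log2 odds ratio of 0.56 (0.21 to 0.92). By read count it was in both areas a small fraction of Rps4x, which had 16254 and 4760 reads.

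The 4 remaining paralogues were at or near 0. Rpl3l, the striated muscle form of Rpl3, had 8 reads in the SVZ and 0 in the cortex, at least 1.14-fold higher in the SVZ against a floor of 3 reads in that library. Rpl39l, a form known from testis, had 0 reads in the SVZ and 9 in the cortex, at least 7.00-fold higher in the cortex against the same floor. Rpl10l, the testis copy of Rpl10, and Rps27rt, a retrocopy of Rps27, were at 0 in both libraries. All windows of Rpl3l and Rpl39l and 99.7% of those of Rpl10l were unique among annotated transcripts, while for Rps27rt the share was 9.67%. A count of 0 allows up to 0.0583 CPM in the SVZ and 0.136 CPM in the cortex.

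Core subunits at the upper end of the range belonged to both subunits. Rps24, a small subunit protein mutated in Diamond-Blackfan anaemia, had 13298 reads in the SVZ and 2920 in the cortex, 259 CPM against 132 CPM, a log2 ratio of 0.97. Rpl35a, also mutated in that disease, had 7556 and 1714 reads, a log2 ratio of 0.92. Rpl13a, which also acts outside the ribosome in silencing inflammatory mRNAs, had 25875 and 5887 reads, a log2 ratio of 0.91. None of these reached 2-fold. Rpl39, a small protein that lines the exit tunnel, had 3235 and 769 reads, and Rpl32 had 23788 and 5673, both with a log2 ratio of 0.85.

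At the lower end, 4 compared members were not higher in the SVZ. Rpl38, known for its part in the translation of Hox mRNAs, had 109 CPM in the SVZ and 111 CPM in the cortex, a log2 ratio of -0.03 (-0.10 to 0.04). Rpl15 had 349 CPM and 351 CPM, a log2 ratio of -0.01 (-0.05 to 0.03). For these 2 genes the interval held equal levels, and Rpl15 is well counted, with 17965 and 7742 reads. Rpl22 and Rps19bp1 were the members with an interval on the cortex side. Rps19bp1, a protein of the nucleolus, had 3964 reads (77.1 CPM) in the SVZ and 2009 reads (91.1 CPM) in the cortex, a log2 ratio of -0.24.

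Next came 4 members with a small excess in the SVZ. Rpl12, a protein at the base of the ribosomal stalk, had 4519 and 1744 reads, a log2 ratio of 0.15. Rpl28 had 5774 and 2203 reads, a log2 ratio of 0.17. Rps28, which lies near the mRNA exit, had 2790 and 1029 reads, a log2 ratio of 0.22, and Rps12 had 1772 and 638, a log2 ratio of 0.25. All 4 intervals lay above 0, the lowest bounds being 0.07 for Rpl12 and 0.10 for Rpl28. Relative to genes of like transcript length all 4 turned to the cortex side, with Rpl12 at -0.23, Rpl28 at -0.27, Rps28 at -0.22 and Rps12 at -0.18, so their direction depends on that choice.

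The most counted members belonged to both subunits. Rpl4, which reaches into the exit tunnel, led with 71078 reads (1380 CPM) in the SVZ and 20926 reads (949 CPM) in the cortex, a log2 ratio of 0.54 (0.52 to 0.56). Rps14, near the platform of the small subunit, followed with 40160 and 10570 reads and a log2 ratio of 0.70. Rps3, at the mRNA entry, had 34128 and 9263 reads, and Rpl35, at the exit tunnel, had 31525 and 9551, with log2 ratios of 0.66 and 0.50.

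Levels between genes were compared only per kb of transcript, for the 71 core subunits whose transcript was at most 3000 nt long. The median was 298 CPM per kb in the SVZ and 186 CPM per kb in the cortex. Although the ribosome holds these proteins in nearly equal numbers, the counted mRNA levels spanned a wide range, with 10th and 90th percentiles of 70.7 and 648 CPM per kb in the SVZ and 59.0 and 441 CPM per kb in the cortex. The order of the genes was nearly the same in the 2 libraries (Spearman's rho across the 71 genes 0.978, a description, since the genes share both libraries and the same mapping).

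**Figure D4:**
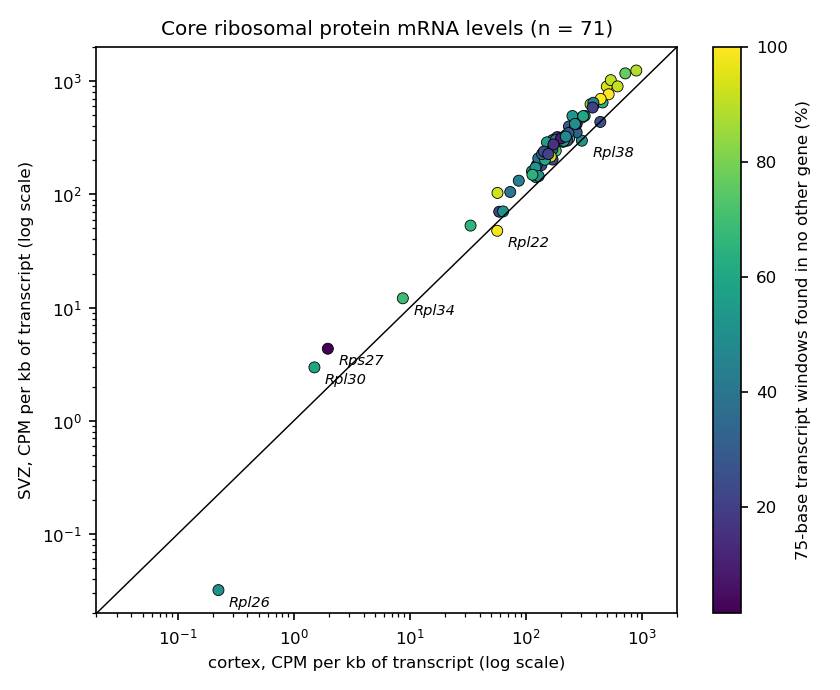
Level of 71 core subunit mRNAs in the cortex (x axis) and the SVZ (y axis), in CPM per kb of transcript on log scales, coloured by the percent of 75-base transcript windows found in no other gene. Nearly all points lie above the line of equal levels, and Rpl26, Rps27, Rpl30 and Rpl34 lie far below the rest in both libraries.

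Reads shared with other genes are missing from these levels, so sequence uniqueness was set beside them. The median core subunit had 51.3% of its windows unique among annotated transcripts, 14 core subunits had at least 80% and 7 had under 20%. The 12 with at least 80% unique windows and a transcript of up to 3000 nt had medians of 661 CPM per kb in the SVZ and 401 CPM per kb in the cortex, the 52 with 20 to 80% had 278 and 170 CPM per kb, and the 7 with under 20% had 320 and 201 CPM per kb, so the level did not go steadily with uniqueness. Across the 71 genes the per-kb level followed the unique share only weakly (Spearman's rho 0.14 in the SVZ and 0.15 in the cortex, as a description). The ratio between areas did not follow it (rho 0.04 over 69 genes), nor strongly the mean CPM (rho 0.22) or transcript length (rho -0.20 over 67 genes). Windows shared with unannotated genomic copies were not counted, and the length is that of 1 annotated transcript per gene.

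Among the core subunits 4 did not reach 10 CPM, although every ribosome holds these proteins. Rpl26, at the rim of the exit tunnel, had 1 read in the SVZ and 3 in the cortex, both within the floor of 3 reads, and 51.1% of its windows were unique. Rpl30 had 87 and 19 reads, a log2 ratio of 0.97 (0.24 to 1.77), with 59.9% unique windows. Rpl34 had 388 and 120 reads, a log2 ratio of 0.47 (0.17 to 0.78), with 69.5% unique windows. Rps27 was another. The low counts stood in both libraries, and for Rpl26, Rpl30 and Rpl34 the unique share of the annotated transcript was about that of the median core subunit or above it. The cause of the low counts was not tested.

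The 7 pseudogenes or retrocopies were all below 10 CPM. Rpl37rt (515 reads in the SVZ and 135 in the cortex), Rpl14-ps1 (474 and 139) and Rps15a-ps6 (463 and 119) had log2 ratios of 0.71, 0.55 and 0.74. Rps19-ps3 had 166 and 43 reads, Rps15a-ps4 had 148 and 56, Rpl31-ps12 had 12 and 9, and Rpl34-ps1 had 0 in both. The summed log2 ratio of the 7 was 0.61 (0.462 to 0.751), close to the 0.58 of the core subunits. Whether their reads came from the copies or from parent mRNAs was not tested.

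By known function, most groups of members resembled the whole, and some genes stand in several groups. Each count of higher genes here and in the lists that follow stands beside 55.2% of all compared genes. All 8 compared proteins of the list made for the exit tunnel were higher in the SVZ, with a median of 0.55, from Rpl17 at 0.26 to Rpl39 at 0.85. That list also held Rpl24 (0.70), which lies at the subunit interface and not at the tunnel. All 8 of the mRNA channel and decoding group were higher as well, with a median of 0.62, from Rps28 at 0.22 to Rps9 at 0.79. Of 10 compared members mutated in Diamond-Blackfan anaemia 9 were higher, with a median of 0.68, Rpl15 being the one that was not. Rps19, the gene most often mutated in the disease, was the most counted of them in the SVZ, with 380 CPM there and 241 CPM in the cortex, a log2 ratio of 0.66. All 8 compared members known to bind the p53 regulator Mdm2 or linked to p53 were higher, with a median of 0.57. They ran from Rps7 (289 and 225 CPM, 0.36) to Rps27l, and included Rpl5 (352 and 247 CPM, 0.51) and Rpl11 (173 and 107 CPM, 0.70), which bind Mdm2 together with 5S ribosomal RNA. The Rpl5 ratio was 0.35 when the stranded counts were summed instead, where reads lost to genes on the opposite strand are kept. The 4 X-linked members, Rpl10, Rpl36a, Rpl39 and Rps4x, had ratios from 0.55 to 0.85. Only 2 of the 4 members known for selective translation were higher, Rps25 at 0.66 and Rpl10a at 0.41, while Rpl38 and Rpl22 were not. Relative to genes of like transcript length 4 of the members higher in these groups turned to the cortex side, Rpl17 (-0.18), Rps28 (-0.22), Rps7 (-0.07) and Rpl10a (-0.03).

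Core subunits with and without a match to the TOP motif within 5 bases of any annotated start had similar ratios. The 24 compared core subunits with a match there had a median of 0.57, from -0.03 to 0.97. The 27 without a match had a median of 0.61, from -0.25 to 0.83. Such a split cannot separate mRNAs with and without the motif, since a start annotated some bases away hides a match. How the motif relates to the ratio was therefore not tested. Of the compared pair members shown above, Rps27l and Rpl22l1 had the largest ratios and held the motif at the start shown. For Rps27l that start was taken from 2 because it held a match. Rpl7l1 at 0.97 did not hold the motif. Rps27, under the 10 CPM minimum, also held it. Other mRNAs known to carry TOP motifs had a median of 0.18 over 14 genes, of which 10 were higher in the SVZ. That median was not centred on transcript length, which brought the members' median from 0.59 to 0.20. Whether their ratios were smaller than those of members of like length was not tested. Among these the elongation factors ran from Eef2 (598 CPM in the SVZ and 783 CPM in the cortex, -0.39) through Eef1a1 (1950 and 1850 CPM, 0.08) to Eef1d (113 and 48.8 CPM, 1.21).

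The 7 ribosomal proteins whose symbols fell outside the rule were all higher in the SVZ, with a median of 0.41. They included Fau (1.03), which carries Rps30, Rplp0 (0.65), Rpsa (0.47), Rplp1 (0.41), Rplp2 (0.24) and Rack1, listed as Gnb2l1 (0.21). Fau was the only one of the 7 past 2-fold. The 3 stalk proteins thus ranged from 0.24 to 0.65.

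Genes of the machinery that makes ribosomes went in both directions. Of 39 compared ribosome biogenesis factors 26 were higher in the SVZ, where 55.2% of all compared genes were. Their median was 0.17, from Bop1 (16.7 CPM in the SVZ and 33.2 CPM in the cortex, -0.99) to Ltv1 (60.3 and 28.4 CPM, 1.08). Npm1, an abundant nucleolar protein, had 713 and 407 CPM, a ratio of 0.81. The 14 compared genes of RNA polymerase I and ribosomal DNA transcription had a median of 0.15, and 9 were higher. Among genes that control translation of TOP mRNAs or ribosomal gene transcription 4 of 14 were higher in the SVZ, with a median of -0.24. This list pools activators, such as Mtor (-0.30), with repressors, such as Tsc2 (-0.69). Its count and median therefore give no direction of control. Myc had 817 reads (15.9 CPM) in the SVZ and 1522 reads (69.0 CPM) in the cortex, a ratio of -2.12, and Mycn had 92.4 and 305 CPM, a ratio of -1.72. The medians of these lists were not centred on transcript length, which brought that of the members from 0.59 to 0.20.

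Mitochondrial ribosomal proteins, which are encoded by other nuclear genes, had nearly the same median as the members. Of 77 genes 71 were higher in the SVZ, where 55.2% of all compared genes were, and the median was 0.57. In the SVZ 9 were past 2-fold, where 14.9% of all compared genes were, and 0 were past it in the cortex, where 12.3% were. Their SD over genes was 0.39, against 0.22 for the core cytoplasmic subunits. They ran from Mrps2 (-0.29) to Mrpl39 (1.69).

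Transcript length moved with the ratio in these libraries. The members' transcripts had a median of 690.5 nt and 85 of the 90 were up to 1500 nt long, while the compared genes with a length had a median of 2553 nt. In 10 classes of length with equal numbers of genes, the median ratio of all compared genes went from 0.44 in the shortest class to -0.10 in the longest. The 1994 other genes with transcripts up to 1500 nt had a median of 0.37, and 1424 of them were higher in the SVZ, against a median of 0.00 for longer ones. Centred on the median of their own length class, the members had a median of 0.20, and 60 of 74 were higher in the SVZ. By the same centring 50.0% of 8714 genes were higher. Part of the difference thus moved with length, and its cause was not tested.

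**Figure D5:**
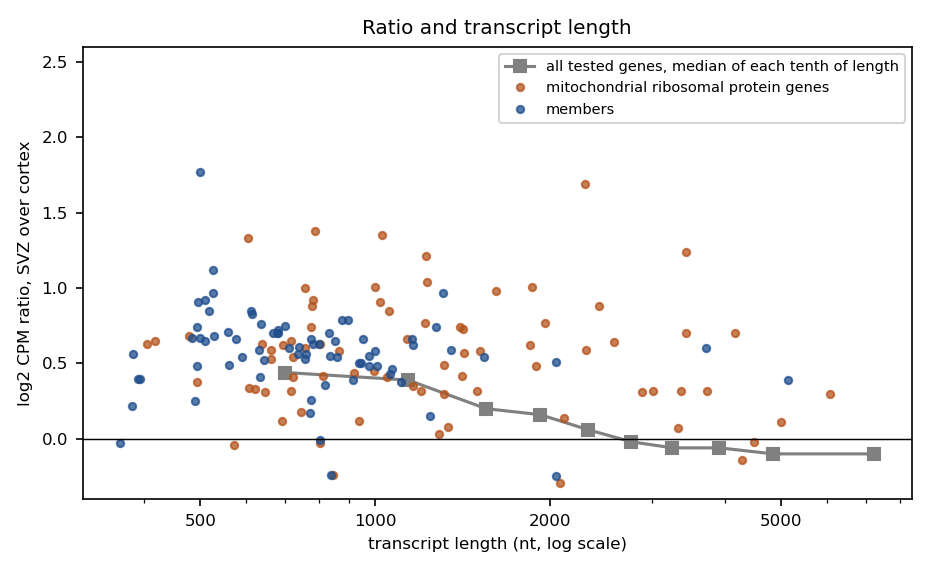
SVZ over cortex CPM on the log2 scale (y axis) against transcript length in nt (x axis, log scale) for the 74 compared members and 77 mitochondrial ribosomal protein genes, with the median ratio of all compared genes in each of 10 length classes as squares. The squares go from 0.44 at the short end to -0.10 at the long end, and most members lie above them.

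Other measures also differed between the libraries. Reads that mapped to several places, which no gene count includes, were 8.20% of the SVZ library and 6.89% of the cortex library. Mapped reads that the counter gave to no annotated gene feature, which can include reads in introns, were 15.4% and 18.4%. Besides the progenitor and neuron markers, summed marker levels were higher in the SVZ for choroid plexus (3 genes, 247 against 2.09 CPM, nearly all Ttr, with Folr1 at 0 in the cortex), microglia (7 genes, 58.8 against 7.71 CPM, with Trem2 at 0 in the cortex) and erythroid cells (8 genes, 20.1 against 10.6 CPM, with the 6 globin genes at 0 in both). Reads shared between globin genes of like sequence would be left out by the counter, so their 0 values need not mean that globin RNA was absent. Blood vessel markers (6 genes) summed to 69.4 and 59.7 CPM, and meninges markers (4 genes) to 3.66 and 5.71 CPM, with Col1a1 at 0 in the SVZ. The part of these measures and markers in the ribosomal protein result was not tested.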

How the data were processed

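SVZ and cortex areas of embryonic day 16.5 mouse brain were cut by LCM, and RNA was sequenced from 1 low-input, paired-end library each. The authors trimmed adapters with cutadapt 4.1 and mapped read 1 to mm10 with STAR 2.7.9a, which counted reads per gene. The deposited values are raw counts in 3 columns, 1 ignoring strand and 2 by strand. The kit does not keep strand: 49.2% of the members' stranded reads lay in the first strand column in both libraries. Reads that map to several places or overlap several genes were left out by the counter. A deposited merged table, which repeats the counts and adds CPM, fold changes and log10 ratios made by the authors in a spreadsheet, was not used.

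The unstranded counts were divided by the gene-assigned total (51435667 for the SVZ, 22050693 for the cortex), so 1 read was worth 0.0194 and 0.0454 CPM. Genes averaging 10 CPM or more were compared, a call was a 2-fold difference, and 0 reads were treated as a floor of 3. Lengths, positions and 75-base window uniqueness came from GENCODE M21 (GRCm38), with 1 transcript per gene of middling length, against the transcripts of other genes. Transcription starts came from RefSeq. Named were all members of the paralogue pairs, the 8 highest and 8 lowest ratios, the 5 most counted members, members at 0 and examples of each list, except that 2 genes are not reported by name here. Rpl37rt, which the rule by symbol made a core subunit, was put with the retrocopies after its annotation was seen. Rps4l has the same annotation but, like the retrocopy Rps27rt, stayed with the paralogues as the second symbol of a listed pair. The members and lists were chosen with earlier results of these data known. The work was done in Python 3.11.15 with pandas 2.3.3, matplotlib 3.10.9 and scipy 1.17.1, and edgeR 4.0.16 and DESeq2 1.42.0 in R 4.3.3 served for scaling alternatives only. Simulated counts for the SVZ against cortex comparison (9027 genes) were drawn with Poisson counting error only. Of 200 genes changed 4-fold 100% were recovered past 2-fold, and 0 of 8827 unchanged genes passed it. The true ratio lay in 95.3% of the intervals. The simulation held no PCR or sample variation, so it checks the calculation and does not test the calls on real libraries.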

Additional observations from a re-analysis of the deposited data

How the results depend on the processing

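No paired analysis was possible because a single library stood for each area, and for the same reason none could be left out. The summed ratio of the members (0.59) was 0.50 with TMM or DESeq2 size factors, 0.49 with upper-quartile scaling, 0.56 without the 10 most counted genes, 0.58 with the stranded counts summed or with core subunits only, and 0.64 for members with at least 80% unique windows. The median (0.59) was 0.49 under each of those 3 scalings, 0.55 without the 10 most counted genes, 0.58 with the stranded sum, 0.65 for the unique members, 0.60 at a minimum of 1 CPM or 100 CPM, and 0.20 when centred on length. The 3 scalings shifted every gene by -0.093, -0.093 and -0.099, and the median of all genes was then 0.00. The members past 2-fold in the SVZ (2, beside 14.9% of all compared genes) were 0 among core subunits and 1 among unique members. They were 4 with no minimum or at 1 CPM, 1 at 100 CPM, where 232 of 2409 genes were, and 1 when centred on length. At 1.5-fold they were 38 and at 4-fold 0. The third quartile of all compared genes, 0.61, was itself past 1.5-fold. The shares of all genes with no minimum, at 1 CPM, centred on length and at 4-fold were not computed. With no minimum, 1 member was past 2-fold in the cortex, Rpl26, on 1 and 3 reads, both within the floor. Of the 17 unique members compared, 15 were higher in the SVZ, where 55.2% of all compared genes were.

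Only the centring on length turned the direction of single members: Rps12 (-0.18), Rps7 (-0.07), Rps29 (-0.03), Rpl10a (-0.03), Rps28 (-0.22), Rpl17 (-0.18), Rpl12 (-0.23), Rps21 (-0.03), Rpl28 (-0.27) and Rps16 (-0.01). Under the 4 other totals, the stranded sum, the thinned SVZ library and a pseudocount of 1 CPM none of the 74 members turned. The paralogue balances moved by less than their intervals with the stranded sum and the thinned library. Uniqueness in the whole genome was not run, and uniqueness among transcripts was chosen in its place after the data were seen. The ratios of Rps27 and Rpl30, with few reads, have wide intervals, and none is given for Rpl26. The precision over repeat samples is not known.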
